A study of Homo sapiens with 13 samples.

Results

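Candidate inactive enhancers (cIEs) bound by CTCF were examined in MDA-MB-231 cells, an established human cell line from a triple-negative, basal B breast cancer. A cIE was an H3K4me1 region with no base in common with any H3K27ac region and none in a promoter window, taken as 3 kb centred on the canonical transcription start site (TSS) of a protein-coding gene. The regions described here were chosen by peak positions: cIEs that shared at least 1 bp with a CTCF peak and none with a p300/CBP peak. They numbered 3705 of the 88319 H3K4me1 regions mapped (4.20%), and 24 CTCF-bound cIEs with a p300/CBP peak were left out. The cells had been grown under standard culture conditions with no added treatment. Chromatin immunoprecipitation and sequencing had been done with 2 replicates per antibody, against H3K4me1, H3K4me3, H3K27ac, RNA polymerase II (Pol II) and CTCF, and with 1 library for p300/CBP. The lists hold positions and no height or count, and replicates were merged before peaks were called. Depth and the error between replicates are therefore unknown, and every interval below is a 95% interval that covers counting error only.

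CTCF recognises a long, partly conserved DNA motif through its zinc fingers, and it stops the cohesin complex as it extrudes loops of chromatin, which places it at loop anchors and domain boundaries. It also acts as an insulator between enhancers and promoters. Monomethylation of histone H3 lysine 4 (H3K4me1) marks enhancers whether or not they are active, whereas acetylation of lysine 27 (H3K27ac), deposited by p300 and CBP, marks those in use. An H3K4me1 region without H3K27ac is often called primed, and it can also be a site whose activity is seen in another cell type or state.

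To show the DNA under these peaks, matches to a CTCF word were read from the GRCh37 (hg19) sequence. The word was CCNNNAG followed directly by NNGGC, on either strand, where N is any base. The sites below belong to regions described later, the ones with the most CTCF peaks, the widest ones, and the ones nearest to promoters used as viewpoints in the study. Each is given 5′ to 3′ on its own strand with 10 bases on either side of the word, and capitals mark the fixed letters of the word. The regions lay in or near the gene whose name each line carries.
C16orf74, first site (chr16:85751568-85751599, minus strand): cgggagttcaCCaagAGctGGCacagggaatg
C16orf74, second site (chr16:85752513-85752544, minus strand): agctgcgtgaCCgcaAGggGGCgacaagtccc
FDXR (chr17:72861127-72861158, plus strand): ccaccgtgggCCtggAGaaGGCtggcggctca
TPRG1 (chr3:188986300-188986331, plus strand): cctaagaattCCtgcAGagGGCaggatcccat
MIR100HG (chr11:121979091-121979122, plus strand): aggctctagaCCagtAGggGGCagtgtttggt
LAMB3 (chr1:209801162-209801193, minus strand): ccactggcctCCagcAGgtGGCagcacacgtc
ITGA3 (chr17:48157193-48157224, plus strand): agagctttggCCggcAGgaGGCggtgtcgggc
FNDC3B (chr3:171753065-171753096, plus strand): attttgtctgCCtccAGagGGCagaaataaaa
TMC6 (chr17:76108864-76108895, plus strand): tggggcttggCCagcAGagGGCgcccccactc
LIPH (chr3:185293355-185293386, minus strand): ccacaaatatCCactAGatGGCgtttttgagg
Between the capitals the sites differed from one another. Between the opening pair of C and the AG, the LAMB3 and TMC6 sites carry the same letters and the C16orf74 sites do not. The pair of sites in C16orf74 lies within a single H3K4me1 region of 4750 bp.

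Of the 3863 CTCF peaks that touched the selected cIEs, 1636 held the CTCF word within 300 bp centred on the peak, or 42.4% (40.8% to 43.9%). At the centres of the 44960 cIEs free of CTCF and p300/CBP the share was 3.37% (3.21% to 3.54%). The same letters read backwards, CGGNN followed directly by GANNNCC, occurred in 1.29% (0.983% to 1.70%) of the CTCF peaks in the selected cIEs. The nearest match lay a median of 19 bp from the peak centre, and in 87.5% of the peaks with the word it lay within 50 bp, where an even spread would give 33.3%. Both strands were used, with 52.0% of matches on the plus strand. The stricter word CCANNAG followed directly by NNGGC was found in 31.5% (30.03% to 32.96%).

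The free positions of the word were also uneven over the 1432 sites within 50 bp of a peak centre. Counting from the first C, the base at position 3 was A in 75.4% of sites. Position 4 was C in 56.7% and G in 35.8%. Position 8 was G in 55.9% and A in 41.4%, and position 9 was G in 54.5% and T in 39.0%. After the word, position 13 was A in 53.3% and G in 33.9%.

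CTCF peaks elsewhere also held the word. Over peaks of all widths its share was lower in promoter windows and at distal peaks without a mark. It was present in 40.3% (38.9% to 41.7%) of CTCF peaks in candidate active enhancers (cAEs, H3K4me1 with H3K27ac outside promoter windows), in 35.9% (34.3% to 37.4%) of those in promoter windows, and in 37.9% (37.3% to 38.5%) of the 25017 distal peaks with no histone mark. The stricter word was present in 26.9% (25.7% to 28.2%), 14.5% (13.4% to 15.6%) and 28.3% (27.8% to 28.9%) of these classes, and the backwards word in 1.70%, 6.02% and 0.859%. Shares of the first word moved with the width of the CTCF peak. In the selected cIEs the word was found in 19.2% (14.98% to 24.14%) of the 282 peaks under 150 bp and in 55.3% (52.6% to 58.1%) of the 1249 peaks of at least 450 bp. The selected cIEs held wider CTCF peaks, with a median of 400 bp against 350 bp in cAEs and 300 bp in promoter windows and at distal peaks without a mark. Within each class of width the interval of the selected cIEs overlapped those of cAEs, of promoter windows and of distal peaks without a mark.

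**Figure D1:**
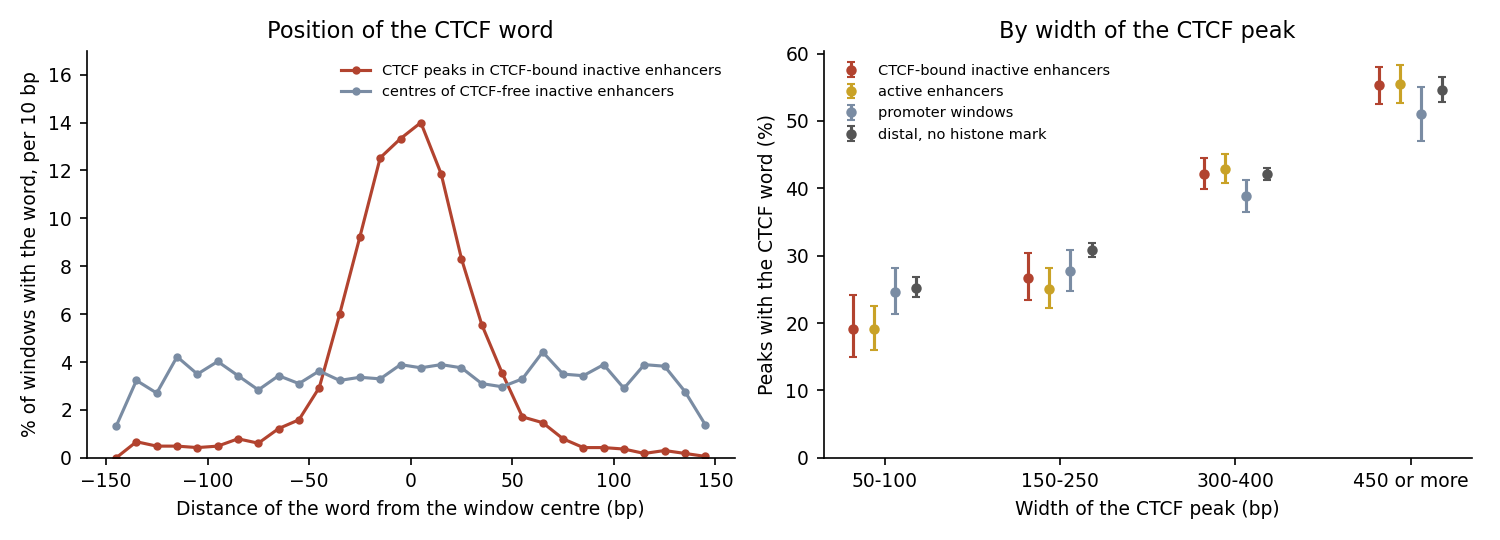
Left, distance of the CTCF word nearest to the window centre (bp) against the percentage of windows with the word, per 10 bp, for 1636 CTCF peaks in CTCF-bound cIEs and 1516 centres of CTCF-free cIEs. Right, percentage of CTCF peaks with the word by width of the peak (bp) in 4 classes of peak, with 95% Wilson intervals. The word gathers at the centres of the CTCF peaks and is spread evenly at CTCF-free centres, and its share rises with peak width in all 4 classes.

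AP-1, the dimers of Fos and Jun proteins that the study is about, binds the palindromic word TGANTCA. Over the whole H3K4me1 region this word was present in 1446 of the 3705 CTCF-bound cIEs, or 39.0% (37.5% to 40.6%). In CTCF-free cIEs weighted to the same widths it was present in 53.7%. Within 300 bp at the region centre the shares were 13.6% (12.5% to 14.7%) and 21.9%. At the CTCF peaks themselves it was present in 12.01% (11.02% to 13.07%), beside 12.8% in cAEs and 8.09% at distal CTCF peaks without a histone mark. Base composition differed too. The median GC content of the region was 49.3% (quartiles 44.4% and 54.5%) in CTCF-bound cIEs and 45.3% (40.6% and 50.6%) in CTCF-free ones, and its part in the word shares was not tested. A word match is a description of the letters and not a bound site.

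CTCF was present on 7.61% (7.38% to 7.85%) of the 48665 cIEs without p300/CBP, and on 16.4% (15.96% to 16.89%) of the 24323 cAEs. CTCF chose the regions, so these shares are a description and were not tested. The CTCF-bound cIEs had a median width of 1050 bp (quartiles 700 and 1650 bp, range 300 to 16400 bp) and covered 4.94 Mb. CTCF-free cIEs had a median of 900 bp and CTCF-bound cAEs of 3100 bp. The share bound by CTCF rose from 4.97% (4.37% to 5.64%) among regions of 300 to 350 bp to 11.2% (10.32% to 12.04%) among those of 2100 to 16400 bp. A wider region can meet more peaks of any kind, so the odds ratios of CTCF-bound over CTCF-free cIEs below were computed within 10 strata of width. Shares given for cAEs, for regions inside and outside genes and for CTCF peaks are not adjusted for width.

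The share also varied between chromosomes. Chromosome Y, with 4 cIEs, was left out. Among the rest, the share was highest on chromosome 19 at 13.6% (11.9% to 15.4%), chromosome 17 at 10.6% (9.46% to 11.8%) and chromosome 22 at 10.4% (8.50% to 12.6%). The interval of chromosome 22 overlapped those of both chromosome 17 and chromosome 19. It was lowest on chromosome 13 at 3.79% (2.81% to 5.11%), on X at 3.85% (2.55% to 5.76%) and on chromosome 4 at 4.43% (3.596% to 5.445%), 3 values whose intervals overlapped. Per Mb of determined sequence, CTCF-bound cIEs numbered 3.58 on chromosome 19, 3.496 on chromosome 17 and 3.46 on chromosome 20, against 1.31 over chromosomes 1 to 22 and X together. The densest Mb of the genome, at 42 to 43 Mb of chromosome 19, was found by its count and held 15 of its 60 inactive enhancers.

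**Figure D2:**
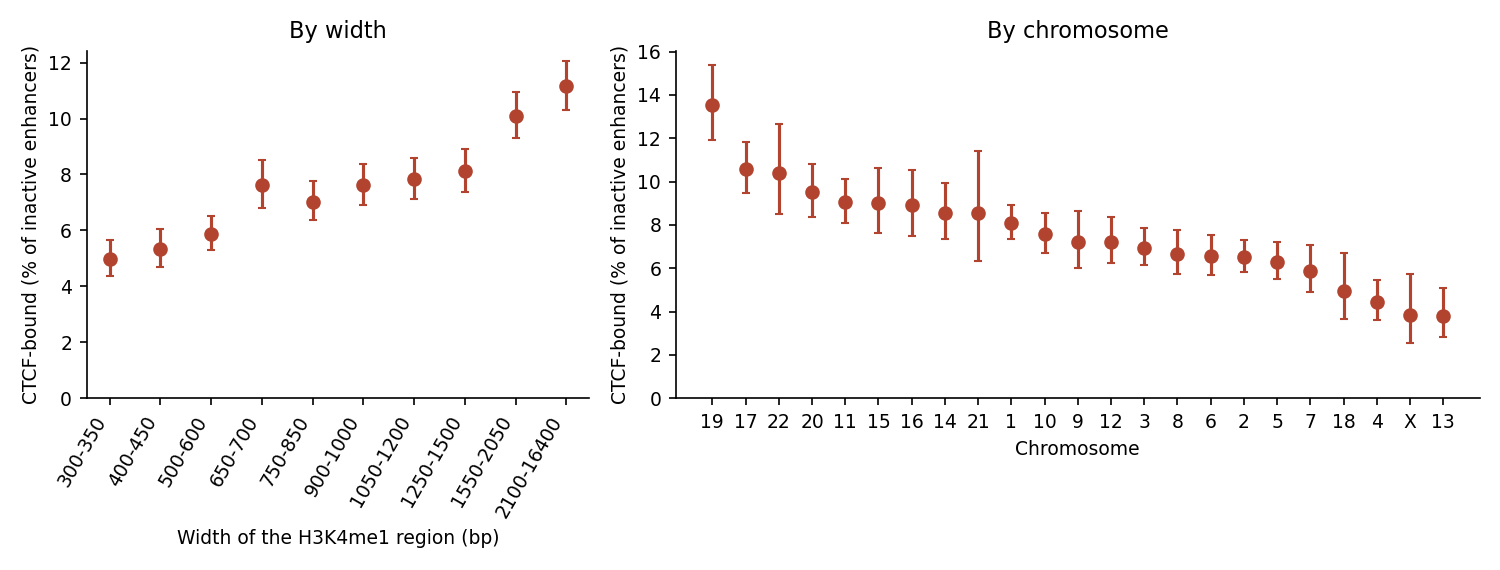
Percentage of cIEs without p300/CBP that held a CTCF peak, left by width of the H3K4me1 region (bp, 10 strata) and right by chromosome, ordered by the share. Points are shares and bars 95% Wilson intervals. The share rises with width from 4.97% to 11.2% and falls from 13.6% on chromosome 19 to 3.79% on chromosome 13.

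Most of the selected cIEs held a single CTCF peak. One peak was found in 3560 regions (96.1%), 2 in 132 and 3 in 13. The centre of the CTCF peak fell inside the H3K4me1 region in 3088 cases (79.9%), and the whole peak in 2638 (68.3%). At the edge of the criterion, 330 CTCF peaks (8.54%) shared exactly 50 bp, the bin of the signal, with their region. Just outside it, 285 CTCF-free cIEs had a CTCF peak that abutted them with no shared base, and 1491 had one at up to 500 bp. Toward H3K27ac, 53 selected regions (1.43%) had an H3K27ac region within 500 bp, and 257 of 3195 CTCF-bound regions excluded for H3K27ac alone shared at most 200 bp with it. The 775 pairs (20.1%) with the CTCF centre outside the region were left out of the following shares. When the region was cut into 5 equal parts, 26.8% of the centres inside fell in the middle one, and 13.5% and 13.02% in the outer ones. In regions of at least 2000 bp (638 pairs) the 5 parts held between 18.5% and 21.2%.

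H3K4me3, the trimethylated form found chiefly at promoters, was more frequent on CTCF-bound than on CTCF-free cIEs. It was not used to choose the regions. A peak was present on 251 of 3705 CTCF-bound cIEs, or 6.78% (6.01% to 7.63%), where 3.14% of all cIEs without p300/CBP held one. In CTCF-free cIEs it was present on 1278 of 44960, or 2.84%, and 2.96% when weighted to the widths of the CTCF-bound ones. The Mantel-Haenszel odds ratio within width strata was 2.38 (2.07 to 2.74), with an adjusted p of 3.51e-35 (n = 48665 regions) by the Cochran-Mantel-Haenszel test, and the share was higher in 23 of 23 chromosomes. CTCF-bound cAEs carried H3K4me3 far more often, at 45.0% (43.5% to 46.6%). Regions are not replicates of the cells, and these p-values count regions only. The odds ratio was 2.22 (1.92 to 2.56) within strata of width and GC content, and 3.48 (2.99 to 4.06) when regions with H3K27ac within 1 kb were left out.

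These H3K4me3 peaks were narrow and mostly lay on the CTCF peak. Their median width was 400 bp (quartiles 250 and 600 bp), against 750 bp on CTCF-free cIEs and 1150 bp over all H3K4me3 peaks. In 195 of the 251 regions (77.7%) an H3K4me3 peak overlapped the CTCF peak itself, and in 5 it covered the whole H3K4me1 region. The share of overlap that the widths alone would give was not computed. Canonical protein-coding TSSs had been removed by the choice of regions. Another annotated TSS was held by 30 of the 251 (11.95%, 8.50% to 16.55%), beside 8.57% of the CTCF-bound cIEs without H3K4me3. H3K4me3 was found on 9.28% (8.04% to 10.7%) of the 1842 CTCF-bound cIEs outside protein-coding genes and on 4.29% (3.46% to 5.31%) of the 1863 inside them. The CTCF-free cIEs gave 3.38% and 2.47%. Among CTCF peaks away from promoter windows, H3K27ac and p300/CBP, H3K4me3 was present on 4.59% (3.97% to 5.30%) of the 3837 in the selected cIEs and on 1.28% (1.15% to 1.43%) of the 25133 without H3K4me1.

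Pol II was also more frequent on the CTCF-bound cIEs. It was found on 236, or 6.37% (5.63% to 7.20%), where 3.76% of all cIEs without p300/CBP held a Pol II peak. CTCF-free cIEs held one in 3.54%, and 3.89% when weighted by width. The odds ratio was 1.69 (1.47 to 1.95; adjusted p = 3.28e-13, n = 48665 regions, Cochran-Mantel-Haenszel test), and the share was higher in 22 of 23 chromosomes. Within strata of width and GC content the odds ratio was 1.31 (1.14 to 1.52; adjusted p = 3.08e-04, n = 48665 regions). CTCF-bound cAEs held Pol II in 33.2% (31.7% to 34.7%).

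Pol II, too, mostly overlapped the CTCF peak, in 217 of 236 regions (91.95%). Peaks wider than the region can meet a CTCF peak anywhere in it, and the share that widths alone would give was not computed. Pol II differed from H3K4me3 in peak width and in position relative to genes. The 248 Pol II peaks on these regions had a median width of 2675 bp (quartiles 887.5 and 8012.5 bp). Those on CTCF-free cIEs were also wide, with a median of 2150 bp (quartiles 650 and 5912.5 bp). All Pol II peaks had a median of 850 bp. The Pol II signal covered the whole H3K4me1 region in 94 of 236 cases (39.8%), and 169 of the 236 (71.6%) lay in a protein-coding gene. Inside genes 9.07% (7.85% to 10.5%) of the CTCF-bound cIEs held Pol II and outside genes 3.64% (2.87% to 4.59%). The CTCF-free cIEs gave 4.44% and 2.24%.

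H3K4me3 and Pol II were rarely on the same CTCF-bound cIE. Both were present on 6 regions (0.162%, 0.0742% to 0.353%), H3K4me3 alone on 245, Pol II alone on 230 and neither on 3224 (87.0%). Of the H3K4me3-positive regions, 2.39% (1.10% to 5.12%) also held Pol II, against 5.16% (4.08% to 6.52%) in CTCF-free cIEs and 55.2% (52.8% to 57.4%) in CTCF-bound cAEs. The 245 regions with H3K4me3 alone lay a median of 32.5 kb from H3K27ac and 34.1 kb from a canonical TSS, 31.8% (26.3% to 37.9%) were in genes, and 22 of them had H3K27ac within 1 kb. Those with Pol II alone lay 6.70 kb from H3K27ac and 12.2 kb from a TSS, and 72.6% (66.5% to 78.0%) were in genes. Their GC content also differed, with medians of 50.4% and 54.4%. The CTCF word was present in 51.4% (45.2% to 57.6%) of the first and 52.6% (46.2% to 59.0%) of the second, and in 42.4% (40.7% to 44.1%) of regions with neither. The differences between these subsets were not tested.

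**Figure D3:**
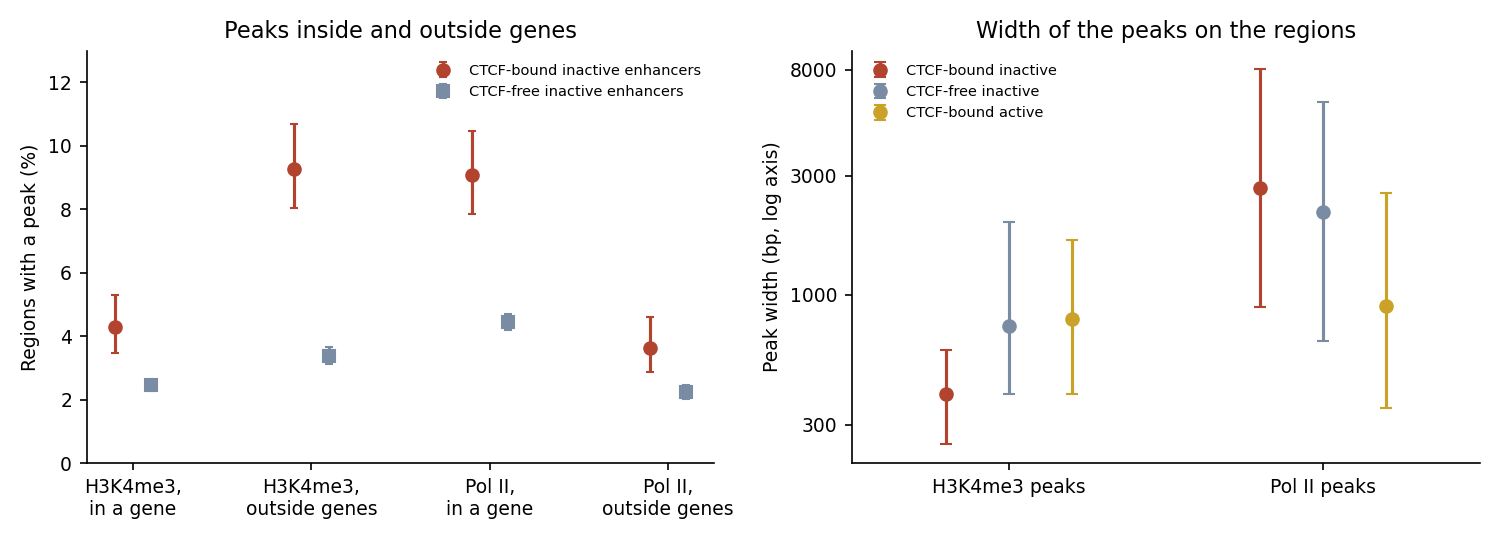
Left, percentage of cIEs with an H3K4me3 or Pol II peak, inside and outside protein-coding genes, for CTCF-bound and CTCF-free cIEs, with 95% Wilson intervals. Right, width of the H3K4me3 and Pol II peaks found on 3 classes of region (bp, log axis), as median with bars from the lower to the upper quartile. H3K4me3 on CTCF-bound cIEs is most frequent outside genes (9.28%) and narrow (median 400 bp), and Pol II is most frequent inside genes (9.07%) and wide (median 2675 bp). On CTCF-free cIEs the median widths are 750 bp for H3K4me3 and 2150 bp for Pol II.

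The remaining annotated TSSs, which the definition of promoters had not removed, were found in 326 CTCF-bound cIEs, or 8.80% (7.93% to 9.75%). Over all cIEs without p300/CBP the share was 5.95%, and in CTCF-free cIEs weighted by width it was 6.56%. The odds ratio was 1.39 (1.23 to 1.57; adjusted p = 1.65e-07, n = 48665 regions, Cochran-Mantel-Haenszel test), and the share was higher in 18 of 23 chromosomes. Within strata of width and GC content it was 1.15 (1.02 to 1.31; adjusted p = 0.0251, n = 48665 regions). Other start sites of protein-coding genes were in 182 regions, start sites of lncRNA genes in 107 and those of pseudogenes and small RNA genes in 48.

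CTCF-bound cIEs lay less often in protein-coding genes. Of the 3705, 1863 overlapped a gene body, or 50.3% (48.7% to 51.9%), where 58.4% of all cIEs without p300/CBP did. In CTCF-free cIEs weighted by width the share was 59.98%. The odds ratio was 0.673 (0.629 to 0.720; adjusted p = 1.22e-30, n = 48665 regions, Cochran-Mantel-Haenszel test), and the share was higher than in CTCF-free cIEs in 0 of 23 chromosomes. Of the CTCF peaks in the selected cIEs, 6.83% were in an exon, 42.6% in an intron and 50.6% (49.0% to 52.2%) outside protein-coding genes. The last share was 49.3% for CTCF peaks in cAEs and 51.8% for distal CTCF peaks without a histone mark, and 41.4% for the centres of CTCF-free cIEs.

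**Figure D4:**
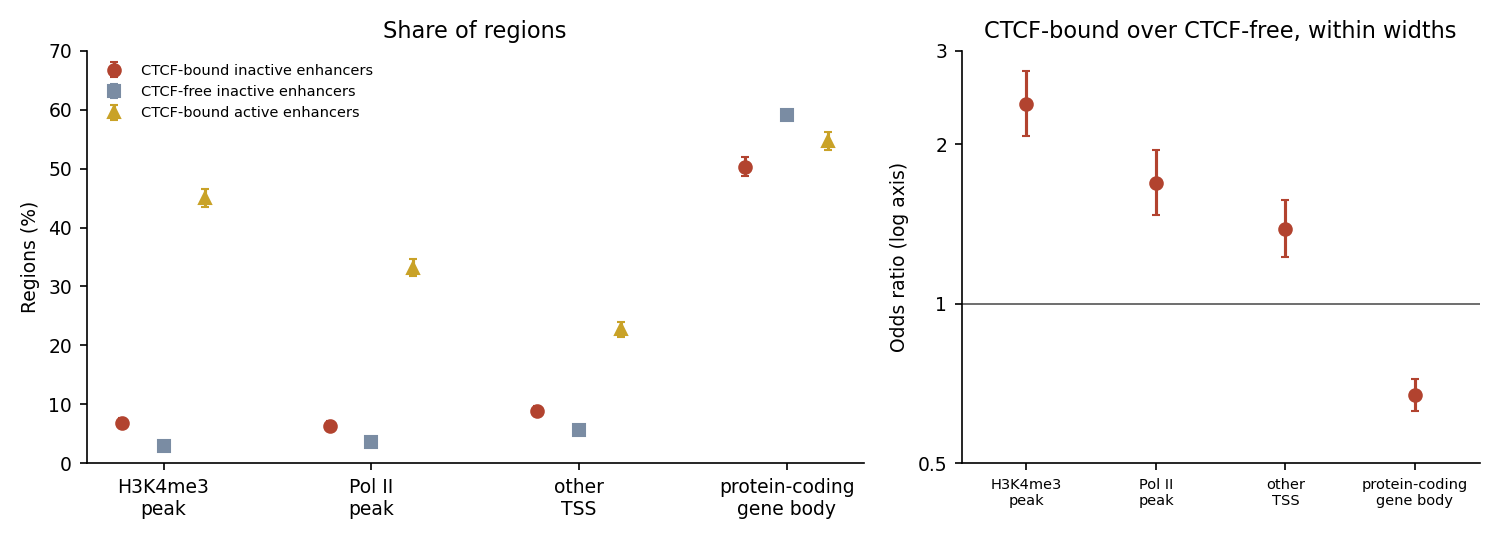
Left, percentage of regions with an H3K4me3 peak, a Pol II peak, another annotated TSS or a protein-coding gene body, for CTCF-bound cIEs (n = 3705), CTCF-free cIEs (n = 44960) and CTCF-bound cAEs (n = 3993), with 95% Wilson intervals. Right, Mantel-Haenszel odds ratios of CTCF-bound over CTCF-free cIEs within 10 strata of width, with 95% intervals on a log axis. The first 3 odds ratios lie above 1 (2.38, 1.69 and 1.39) and that of gene bodies below it (0.673).

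The surroundings of the CTCF-bound cIEs were described by the nearest features. The nearest H3K27ac region was a median of 15.5 kb away (interval of the median 14.5 to 16.5 kb), beside 15.2 kb for CTCF-free cIEs at the same widths, and the nearest cAE 25.6 kb away beside 23.5 kb. Canonical TSSs were nearer, at 30.4 kb (28.5 to 31.9 kb) beside 43.2 kb. Other CTCF peaks were nearer as well, at 11.9 kb (11.3 to 12.6 kb) beside 20.1 kb. CTCF had chosen the regions, so the last pair is not independent of the choice.

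Of 20176 protein-coding genes, 1664 held at least 1 CTCF-bound cIE in their body, 1399 of them exactly 1 and 3 of them 5 or more. SLC25A48, a member of the mitochondrial carrier family on chromosome 5, held 7, of which 1 carried H3K4me3. NMT1, the enzyme that attaches myristate to protein N-termini, held 5, and 2 of these carried Pol II. GSE1 also held 5. Genes with 4 included DAAM2, a formin that acts in Wnt signalling, ATP9A, RAP1GAP2, PEBP4, CACNA1A, a calcium channel subunit of neurons, and PALM2AKAP2. These counts were not scaled to gene length. Per Mb of gene, SLC25A48 held 16.96, GSE1 9.87 and the shorter DAAM2 35.5. DAAM2 also held 16 CTCF-free cIEs.

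The most CTCF peaks in a region was 3, in 13 regions, and the 5 widest of these are described here. The example near IL3, a cytokine of blood cell growth, was the H3K4me1 region at chr5:131399001-131404501, 2.65 kb from the IL3 TSS and outside any protein-coding gene. Its CTCF peaks, 450, 500 and 400 bp wide, all lay in one part of the region between 2.65 and 0.35 kb to the left of its centre. Neither H3K4me3 nor Pol II was present, and the nearest H3K27ac region began 3.95 kb from its edge. Of these 5 widest, the others were in C16orf74 (chr16:85749701-85754451), in FDXR, the mitochondrial ferredoxin reductase (chr17:72858151-72862151), in TPRG1 (chr3:188985451-188989051) and in DENND3. None of these carried H3K4me3 or Pol II. The region in C16orf74 was 26.6 kb from the nearest H3K27ac region, while the others among these 5 were 3.95 to 6.35 kb away.

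The 5 widest CTCF-bound cIEs all carried Pol II and no H3K4me3. The widest, chr3:44102651-44119051, measured 16400 bp, held a CTCF peak of 100 bp and lay 164.3 kb from the nearest canonical TSS, that of TOPAZ1. The second lay in VCL, which encodes the adhesion protein vinculin, and held a Pol II peak of only 150 bp. The third, chr11:121972701-121984301, contained a start site of MIR100HG, a lncRNA that hosts microRNAs, and lay under a Pol II peak of 17650 bp. In LAMB3, which encodes a laminin chain of basement membranes, a region of 9350 bp lay under a Pol II peak of 42800 bp. In ITGA3, an integrin subunit that binds laminin, a region of 8850 bp was covered except at one end by a Pol II peak of 29200 bp. The matches to the CTCF word printed for MIR100HG, LAMB3 and ITGA3 come from these regions.

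In 5 of the 3705 regions a single CTCF peak was overlapped by both H3K4me3 and Pol II, and in 4 of these the CTCF peak reached beyond the H3K4me1 region into an H3K27ac region 0.15 to 0.3 kb away. They lay nearest to NXPH3, SLC12A5, MISP3 and RCC1, a nucleotide exchange factor of the Ran GTPase. None of those 4 H3K4me1 regions itself held both peaks. The one near NXPH3 held neither, those near SLC12A5 and MISP3 held H3K4me3 alone, and the one near RCC1 held Pol II alone. The remaining one, chr11:57244351-57244751 in RTN4RL2, a Nogo receptor homologue, was 15.5 kb from H3K27ac. It carried an H3K4me3 peak of 350 bp and a Pol II peak of 400 bp.

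**Figure D5:**
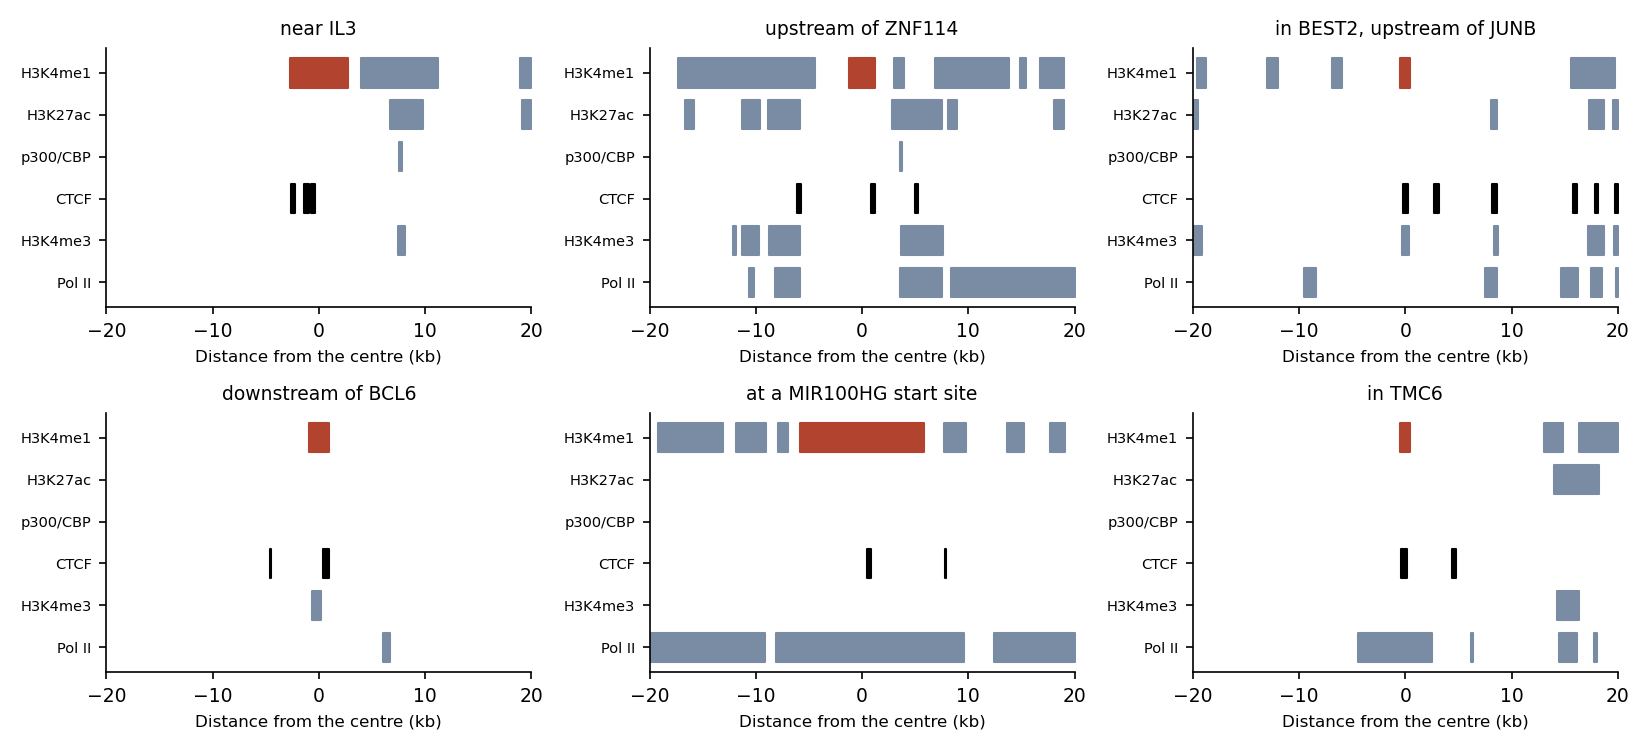
Peaks of 6 lists around 6 CTCF-bound cIEs, as distance from the centre of the region (kb), with the CTCF-bound cIE in red, CTCF peaks in black and all other peaks in grey-blue. The region near IL3 holds 3 CTCF peaks, the regions near JUNB and BCL6 carry H3K4me3 peaks of 600 and 850 bp, and those at MIR100HG and in TMC6 lie under Pol II peaks of 17650 and 7000 bp.

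Genes of 5 lists were searched for a CTCF-bound cIE within 50 kb of their TSS. Of all 19894 protein-coding genes, 21.1% had one. Among the 34 genes whose promoters were viewpoints for chromatin capture in the study, 8 did (23.5%, 12.4% to 40%). The study had picked these genes because Fra-1, a Fos family protein, controlled them. ZNF114, a zinc-finger gene, had one 2.64 kb upstream, at chr19:48768201-48770701. SMAD6, an inhibitor of BMP signalling, had one 3.02 kb upstream and FNDC3B one 4.02 kb upstream. For TMC6 the region was 15.3 kb downstream within the gene and under a Pol II peak of 7000 bp. LIPH, a phospholipase, and SOX9, a transcription factor of epithelial progenitors, had one 22.2 and 23.1 kb upstream. FOSL1, the gene of Fra-1 itself, had none within 50 kb, and the nearest lay 88.5 kb away.

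Among the 18 genes of the AP-1 family, 6 had a CTCF-bound cIE within 50 kb (33.3%, 16.3% to 56.3%). The nearest was 14.2 kb downstream of JUN, at chr1:59234901-59235551, and others were 28.6 kb downstream of FOS and 33.3 kb upstream of JUNB. The JUNB one lay in BEST2 and carried an H3K4me3 peak of 600 bp over its CTCF peak. ATF2, BATF and MAFK had theirs at 35.3, 37.3 and 48.9 kb. The interval of this list includes the share of all genes.

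Of 23 genes of the epithelial to mesenchymal transition 4 had one (17.4%, 6.98% to 37.1%). The nearest lay 14.4 kb from MMP9, a matrix metalloproteinase, 16.2 kb upstream of SNAI1, a repressor that drives the transition, 32.1 kb upstream of CDH1, which encodes E-cadherin, and 43.9 kb from CLDN3, a tight junction claudin. The region near MMP9 was the one described above near SLC12A5, 0.3 kb from H3K27ac and with an H3K4me3 peak of 2400 bp. The region near CDH1 was inside its neighbour CDH3 and 1.20 kb from H3K27ac. Of 20 luminal breast genes, 3 had one (15%, 5.24% to 36.0%). CA12, a carbonic anhydrase, had it at 20.1 kb, KRT8, a keratin, at 39.1 kb and GREB1, an oestrogen-induced gene, at 48.4 kb.

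Of 30 genes at loci known for CTCF sites, 6 had one (20%, 9.51% to 37.3%). A single region in HOXA3, at chr7:27175451-27176601, was the nearest to both HOXA5 (6.70 kb) and HOXA9 (28.6 kb), homeobox genes that pattern the body axis. SHH, a morphogen, had one 14.9 kb downstream and H19, an imprinted lncRNA outside the background of protein-coding genes, one at 35.3 kb. The region 30.6 kb downstream of BCL6, a repressor of germinal centre B cells, carried an H3K4me3 peak of 850 bp and no Pol II, and its nearest H3K27ac region was 22.6 kb away. All 5 intervals included the share of all protein-coding genes.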

How the data were processed

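Chromatin immunoprecipitation and sequencing of MDA-MB-231 cells gave 6 lists of peaks. The authors aligned reads to hg19, with BWA-backtrack in the study's methods and Bowtie2 in the submitters' processing notes, kept uniquely mapped reads in 50 bp bins, merged replicates and called peaks by a threshold on the signal. The threshold was 30 for H3K4me1 and H3K4me3, 50 for H3K27ac, Pol II and CTCF, and 60 for p300/CBP. By their labels, the lists of H3K4me1, H3K4me3, H3K27ac and p300/CBP came from scaled signal with background subtracted. The Pol II list is labelled as scaled only, and the CTCF list carries neither label. Whether the thresholds are on one scale is therefore unknown. Neighbouring bins over the threshold were joined when the gap was no longer than 1000 bp in H3K4me1, 800 bp in Pol II, 500 bp in H3K27ac and H3K4me3, and 50 bp in CTCF and p300/CBP. Wide gaps join neighbouring peaks and lengthen the Pol II and H3K4me1 regions. Input libraries were not analysed here.

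Every start and end in the deposited lists is 1 past a multiple of 50, and the end was taken as the first base after the peak. Genes came from GENCODE release 44 mapped to GRCh37, whose chromosome lengths were checked against the lists. The tools were NumPy 2.4.6, SciPy 1.17.1 and matplotlib 3.10.9, run in Python 3.11.15. Shares have 95% Wilson intervals. The 4 outcomes that did not choose the regions were compared between CTCF-bound and CTCF-free cIEs by Mantel-Haenszel odds ratios and two-sided Cochran-Mantel-Haenszel tests over 10 strata of width, with Benjamini-Hochberg adjustment over the 4. The code was tested on simulated data: overlaps and distances were wrong in 0 of 3600 cases, and 192 of 200 intervals held the true odds ratio.

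The regions and gene lists were chosen with earlier results of these data known. Genes were named by fixed rules: the 10 whose bodies held most CTCF-bound cIEs, up to 6 per list by distance, and the regions with the most CTCF peaks, the greatest width, or H3K4me3 and Pol II over the same CTCF peak (5 of each). Sites were printed for regions named by these rules, at most 12 in all. Some genes that these rules select are not reported here.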

Additional observations from a re-analysis of the deposited data

How the results depend on the processing

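No paired analysis was possible because each list pools its replicates, which also means that none of them could be left out. Of 81 values under other settings, for 9 results, 71 were classed as unchanged and 10 as moved. Odds ratios were judged by direction and side of the threshold, and shares and medians by their interval. The number of regions has no interval, and the 71 include falls in it. From 3705 it fell to 2972 with the CTCF centre inside the region and to 3004 with 50% of the CTCF peak inside. With promoter windows on all basic TSSs of the annotation it fell to 3303. All 44 alternative odds ratios kept their direction with adjusted p-values under 0.05. They ran from 2.22 to 3.48 for H3K4me3, where the highest came from leaving out regions with H3K27ac within 1 kb, from 1.31 to 1.85 for Pol II, from 1.15 to 1.597 for other TSSs and from 0.615 to 0.701 for gene bodies. The strata of GC content and of TSS distance were chosen after seeing the data. The lowest values for H3K4me3, Pol II and other TSSs came with strata of GC content. Requiring the CTCF centre inside the region lowered the share of bound cIEs to 6.11% and raised their median width to 1150 bp, and requiring 50% of the CTCF peak inside gave 6.17% and 1150 bp. When only the wider H3K4me1 and CTCF peaks were kept, those not below the median width, there were 1220 regions with a median width of 1800 bp, a median distance to H3K27ac of 13125 bp and the CTCF word in 46.5% of CTCF peaks. The share with the word was 31.5% for the stricter word and 44.7% in windows of 500 bp. These moves follow from how each setting chooses regions, letters or windows. Peak lists without heights cannot separate weak from strong CTCF sites, and a cIE with H3K27ac just under the threshold counts as inactive.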
